A study of Mus musculus with 12 samples.

Results

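Heart ventricles of LCHADD male mice were compared with ventricles of wild-type (WT) male mice, with 3 libraries in each group. These are 6 of the 12 libraries of the series, chosen by their labels, and the other 6 come from females of the same 2 genotypes. The abbreviation names a deficiency of the enzyme long-chain 3-hydroxyacyl-CoA dehydrogenase. RNA came from fresh tissue through a column kit for fibrous tissue, and total RNA was sequenced. The labels name no treatment and give neither age, strain nor hour of collection. They also do not say how the genotype was made or whether replicates are separate animals, so p-values measure only the spread between these samples, which may be technical. Of 51912 gene identifiers, 13336 reached a value of 10 in 3 or more of the 6 libraries and were tested, and no other library entered the fit.

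The mitochondrial trifunctional protein carries out the later steps of each round of long-chain fatty acid oxidation, and its alpha subunit, made from Hadha, holds the long-chain 3-hydroxyacyl-CoA dehydrogenase activity. The adult ventricle draws most of its energy from fatty acids, and inherited loss of this activity is known in patients for heart muscle disease and rhythm disturbances. Stress inside mitochondria is known to reach the nucleus through the integrated stress response, in which the transcription factor ATF4 turns on genes of amino acid supply, one-carbon metabolism and tRNA charging.

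Values are normalised reads, a gene's read count divided by 1 scaling factor per library, as the authors deposited them. They are not divided by gene length, so levels are compared between libraries and not between genes. Depth ran from 15.6 to 21.3 M reads (M for mega) in WT and 17.5 to 18.8 M in LCHADD. Reads from mitochondrially encoded genes took 29.3% to 32.7% of the total in WT and 34.4% to 36.1% in LCHADD. In a principal component analysis the leading axis, with 60.6% of the variance, separated the genotypes, and the next, 11.9%, set LCHADD male 2 apart from LCHADD male 3. The tissue label was set beside markers, and all 15 markers of ventricular muscle cells were tested. The atrial light chain Myl7 and the skeletal muscle genes Myh2, Myh4 and Tnnc2 were at 0 in all 6 libraries. Other members of those lists had reads: 11 of 15 atrial and 2 of 13 skeletal muscle markers reached the filter. The genes at 0 alone therefore do not settle the tissue. In bulk tissue, fewer cells of a type and less RNA per cell cannot be told apart.

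Of the 13336 genes, 3333 passed at an adjusted p under 0.05 (limma, Benjamini-Hochberg over all tested genes), which is 25% of them. In LCHADD 1622 genes (12.2%) were higher and 1711 (12.8%) were lower, and the median log2 change over all tested genes was -0.000146. Most of the changes were small. The median size among genes that passed was 0.48 on the log2 scale, and 609 rises and 660 falls reached 1.5-fold. At least 2-fold were 270 rises and 243 falls, and at least 8-fold were 39 rises and 9 falls. The 3 LCHADD values lay wholly above or wholly below the 3 WT values for 5282 genes, 39.6% of those tested. Before adjustment 4793 genes had a p under 0.05. With the 6 female libraries added to the fit, which then share 1 estimate of the spread, 2139 genes passed, and without LCHADD male 1 2409 did. Where a named gene lost its call with all 12 libraries in the fit, the adjusted p of that fit is given after it as the 12-library adjusted p. Log2 changes are LCHADD minus WT on log2(value + 1), means are given with the SD of n = 3, and "rose" and "fell" are used only of genes that passed.

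**Figure D1:**
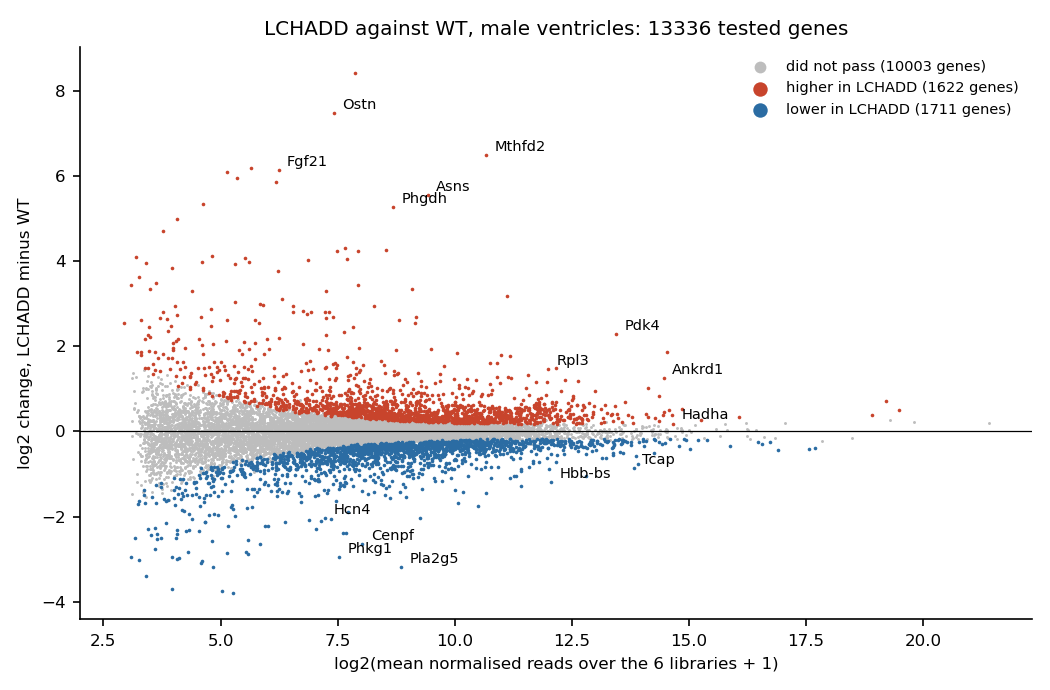
Each point is 1 of the 13336 tested genes, with its log2 mean level over the 6 male libraries on the x axis and its log2 change (LCHADD minus WT) on the y axis. Red points (1622) are higher in LCHADD and blue points (1711) lower, and the largest changes are rises of genes with a low or moderate level.

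Genes were also described in 30 lists by role, read against these shares of all tested genes.

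**Figure D2:**
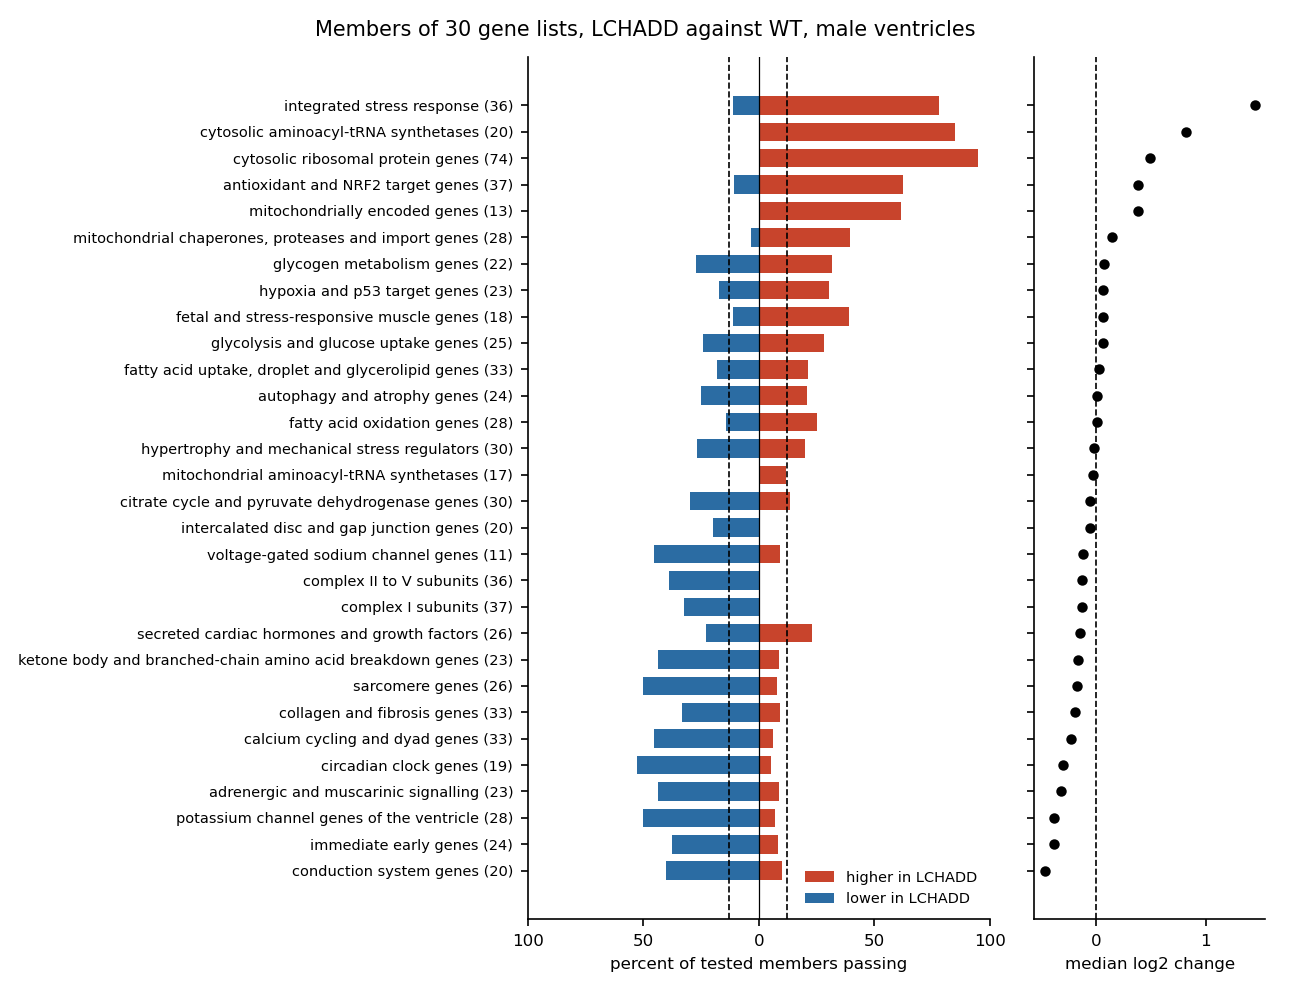
For each of 30 gene lists (tested members in brackets), bars give the percent of tested members higher (red, right) and lower (blue, left) in LCHADD, and points give the median log2 change. Dashed lines mark the same quantities over all 13336 tested genes (12.2%, 12.8% and a median near 0), and ribosomal protein genes reach furthest to the right with 70 of 74.

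The trifunctional protein is built from the products of Hadha (alpha) and Hadhb (beta). Hadha (ENSMUSG00000025745) had 25845, 24116 and 23402 normalised reads in WT males 1, 2 and 3 and 28083, 27817 and 27283 in LCHADD males 1, 2 and 3. The groups did not overlap, but the difference was small (log2 change 0.18, SE 0.06, adjusted p = 0.041), and it lost the call with all 12 libraries in the fit (adjusted p = 0.09). It was also lost without any 1 of 5 libraries, the exception being LCHADD male 3. Hadhb (ENSMUSG00000059447) went from 36831, 34105 and 35210.3 to 42072, 42294 and 43552 (log2 change 0.27, SE 0.06, adjusted p = 0.0045). An altered sequence would not show in read counts, so neither gene checks the genotype labels.

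Genes of the integrated stress response had the highest median change of the 30 pathway lists. Of the 36 genes listed for it, all of which were tested, 28 rose and 4 fell, and the median log2 change was 1.45. The transcription factors came first in the pathway. Atf4 had 1192, 1305 and 1290.3 normalised reads in WT and 3001, 2669 and 2605 in LCHADD (log2 change 1.13, SE 0.07, adjusted p = 2.8e-09). Its relative Atf5 went from 436, 407 and 426 to 5109.6, 2641 and 4217, a 9.43-fold difference of the means. Ddit3, which encodes the stress factor CHOP, rose from 246 ± 25.8 to 629 ± 51.2, and Cebpg, a partner of ATF4, from 366 ± 17.4 to 615 ± 7.99. The groups did not overlap for any of these factors. Trib3, a pseudokinase that restrains ATF4, rose from 40.7 ± 4.43 to 448 ± 48.9 (log2 change 3.43, SE 0.15, adjusted p = 1.9e-11). Atf3, another stress factor, did not pass, with 128, 111 and 79.6 normalised reads in WT and 58.4, 139 and 76.2 in LCHADD, and those ranges overlapped.

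The stress-response list holds enzymes of serine synthesis and one-carbon metabolism. Phgdh, which opens serine synthesis, had 17.9, 19.7 and 20.8 normalised reads in WT and 938, 564 and 914 in LCHADD. Psat1, the step after it, had 38.8, 32.1 and 33.7 and 816, 473 and 810.3 (log2 change 4.25, SE 0.18, adjusted p = 1.9e-11). For the last step, Psph, the change was 0.61 (adjusted p = 0.023), and the call was lost without WT male 3 (adjusted p = 0.086), without LCHADD male 2 (0.081) and without LCHADD male 3 (0.068). Shmt2, which moves the serine carbon onto folate in mitochondria, rose from 781 ± 65.2 to 1192 ± 86.0. Mthfd2, the next mitochondrial folate enzyme, had 28.9, 60.4 and 22.5 normalised reads in WT and 3694, 2412 and 3519 in LCHADD, the largest log2 change of the list (6.49, SE 0.24). Aldh1l2, which oxidises the folate-bound carbon, went from 169.6 ± 48.6 to 967 ± 128. Among these enzymes the rises ran from 0.61 for Shmt2 and Psph to 6.49 for Mthfd2 on the log2 scale.

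It also holds genes of amino acid synthesis and transport, which moved in either direction. Asns, asparagine synthetase, had 31.9, 35.8 and 18.2 normalised reads in WT and 1588, 1081 and 1351 in LCHADD (log2 change 5.54, SE 0.20, adjusted p = 1.7e-12). The proline enzymes Aldh18a1 and Pycr1 rose from 153 ± 5.15 to 998 ± 163 and from 28.5 ± 14.2 to 274 ± 69.3. Slc7a11, the cystine transporter, had 0, 1.23 and 0 normalised reads in WT, 1 read over the group, and 137, 79.0 and 78.5 in LCHADD, 269 reads, a ratio of 295 with a 95% counting interval of 52.5 to 11685. The large neutral amino acid transporter is built from Slc7a5, which rose from 93.5 ± 17.6 to 985 ± 328, and Slc3a2, which rose from 505 ± 13.4 to 1145 ± 85.0. Slc1a4, a neutral amino acid transporter, rose from 19.4 ± 4.03 to 85.5 ± 16.9. Slc7a1, the carrier of cationic amino acids, fell from 1318 ± 282 to 966 ± 40.0 (log2 change -0.43, adjusted p = 0.0061, 12-library adjusted p = 0.11). Slc1a5, a glutamine transporter, did not pass (-0.24, adjusted p = 0.26). Chac1, which breaks down glutathione, rose from 28.8 ± 4.72 to 212 ± 60.1. Nupr1, a stress-induced chromatin protein, rose from 28.4 ± 8.56 to 198 ± 54.0, and Sesn2, which restrains growth signalling, from 77.8 ± 6.89 to 151 ± 15.3 (12-library adjusted p = 0.051). The other genes of the list that fell were Vldlr, a lipoprotein receptor (-0.30), Ddit4 (-0.54, 12-library adjusted p = 0.19) and Stc2 (-0.35, 12-library adjusted p = 0.14). With 12 libraries 1 gene of the list fell, and the count of falls was 2 by DESeq2 and 2 without WT male 2, without WT male 3 or without LCHADD male 1.

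**Figure D3:**
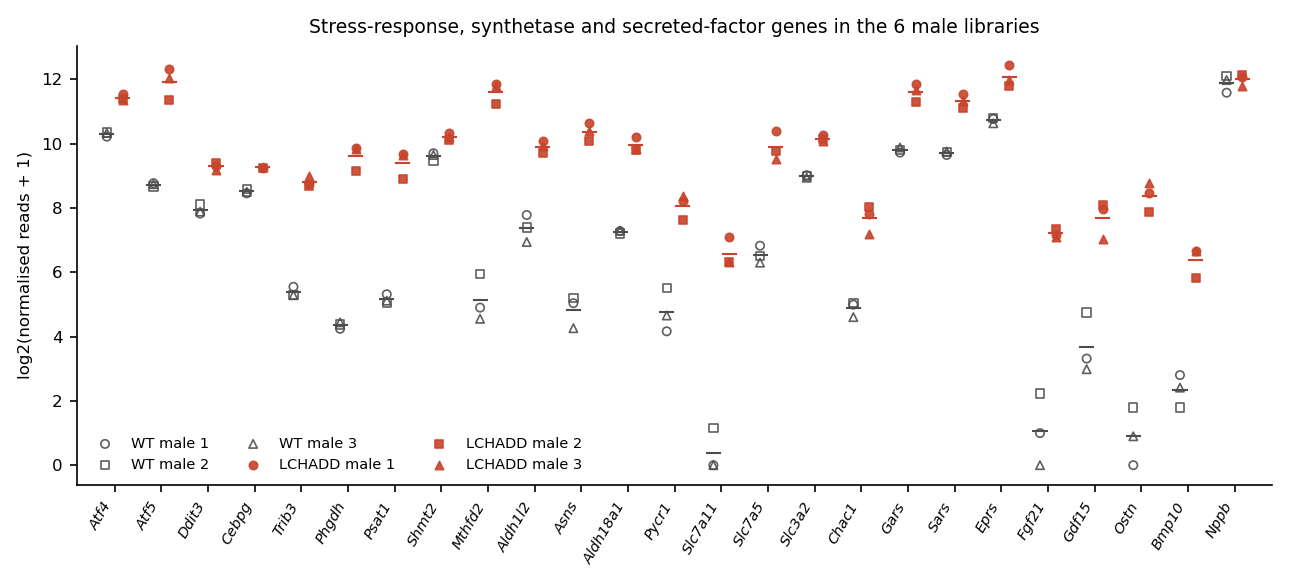
Each symbol is 1 library's log2(normalised reads + 1) for the gene on the x axis, with open grey symbols for the 3 WT males, filled red symbols for the 3 LCHADD males and a line at each group mean. All genes shown except Nppb lie higher in each LCHADD library than in each WT library.

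The size of these rises differed between the LCHADD libraries. Among the 28 list members that rose, LCHADD male 1 was the highest of the 3 for 17, and LCHADD male 2 the lowest for 14. The order was looked at after the values were seen. LCHADD male 2 also lay nearest to WT on the component that separated the genotypes.

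To set the changes beside the sequence before each gene, promoters were read from RefSeq, build GRCm38.p6, as the 250 bases before the start of each gene. They were searched on both strands for TGATGNAA (reverse TTNCATCA), the core of the element that ATF4 and C/EBP proteins are known to bind. The core stood in 1134 of 32851 promoters in the table, 3.45%, and in 8 of the 31 stress-response genes that had a promoter there, 25.8%. Among the 10127 tested genes with a promoter in the table, of 13336, the share was 2.37%. The list was drawn up as genes of the response that ATF4 drives, so its share is no measure of the change in LCHADD. These are the 8, each written 5′ to 3′ along its gene with the match in capitals.
Asns: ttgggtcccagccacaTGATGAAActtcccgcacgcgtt
Fgf21: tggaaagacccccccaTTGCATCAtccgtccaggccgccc
Slc7a11: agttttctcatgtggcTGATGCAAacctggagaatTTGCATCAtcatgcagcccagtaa
Chac1: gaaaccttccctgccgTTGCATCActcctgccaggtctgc
Pycr1: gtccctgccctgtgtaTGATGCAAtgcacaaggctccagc
Nupr1: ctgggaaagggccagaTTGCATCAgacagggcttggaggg
Atf3: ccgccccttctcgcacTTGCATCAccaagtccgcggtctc
Vldlr: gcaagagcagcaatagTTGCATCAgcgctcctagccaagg
On GRCm38.p6 these windows lie at chr6:7693210-7693248 on the minus strand for Asns, chr7:45615606-45615645 on the minus strand for Fgf21 and chr3:50443637-50443695 on the minus strand for Slc7a11. Those of Chac1 (chr2:119351033-119351072) and Vldlr (chr19:27216804-27216843) are on the plus strand. Those of Pycr1 (chr11:120643828-120643867), Nupr1 (chr7:126625557-126625596) and Atf3 (chr1:191183420-191183459) are on the minus strand. The match began between 200 (Vldlr) and 23 (Asns) bases before the start, and Slc7a11 held 2 matches, 1 on each strand. Among the 8, Asns, Fgf21, Slc7a11, Chac1, Pycr1 and Nupr1 rose, Vldlr fell and Atf3 did not pass. A match is a description of these letters and not a measured binding site, and the absence of a match, as for Mthfd2, Phgdh, Psat1 and Trib3, says only that the letters are not in this window.

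Cytosolic aminoacyl-tRNA synthetases, the enzymes that load amino acids onto tRNAs for the ribosome, rose almost as a class. Of 20 listed and tested, 17 rose and 0 fell (median log2 change 0.82). Gars, for glycine, had 845, 893 and 943 normalised reads in WT and 3741, 2495 and 3227 in LCHADD (log2 change 1.80, SE 0.10, adjusted p = 9.3e-10). Sars, for serine, had 802, 857 and 864 and 2987, 2229 and 2564. Eprs, which charges glutamate and proline, went from 1746, 1790.3 and 1589.5 to 5531, 3543 and 4047 (log2 change 1.33, SE 0.11, adjusted p = 8.0e-08). Cars, for cysteine, rose from 235 ± 21.3 to 597 ± 107, and Iars, for isoleucine, from 1105 ± 33.0 to 2699 ± 434. The 3 that did not pass were Wars for tryptophan (0.14, adjusted p = 0.29), Hars for histidine (0.16, adjusted p = 0.17) and Farsa, a phenylalanine subunit (0.08, adjusted p = 0.64). LCHADD male 1 was the highest of its group for 16 of the 17 that rose, and LCHADD male 2 the lowest for 12. The mitochondrial synthetases, which serve the organelle's own ribosome, stood near the other genes: of 17 tested, 2 rose and 0 fell, with a median of -0.03. Rars2 rose from 296 ± 9.11 to 396 ± 20.4, while the abundant Lars2 (0.13) and Iars2 (-0.05) did not pass. The other rise was of Vars2 (adjusted p = 0.045, 12-library adjusted p = 0.11), and the count of rises was 4 without LCHADD male 3, 1 without any of the other 5 libraries and 1 with 12 libraries.

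Genes for the proteins of the cytosolic ribosome rose in nearly every case, by small amounts. Of 74 tested, 70 rose and 0 fell, with a median log2 change of 0.49; the largest change was 1.46, of Rpl3. Their summed level was 231982, 241282 and 224939 normalised reads in WT and 318097, 282194 and 370372 in LCHADD. LCHADD male 3 was the highest of its group for 69 of the 70 that rose and LCHADD male 2 the lowest for 65. Without LCHADD male 3, 65 still rose. Rpl3, a protein at the catalytic centre of the large subunit, had 2111, 2249 and 2119 normalised reads in WT and 6406, 4800.4 and 6792 in LCHADD (log2 change 1.46, SE 0.09, adjusted p = 3.8e-09). Its striated-muscle paralog Rpl3l, named after its values were seen, moved the other way, from 4028, 3859 and 3956 to 1881, 2576 and 2256 (log2 change -0.83, SE 0.09, adjusted p = 1.2e-06). The pair share sequence, and the counting of shared reads is not given in the sources used here.

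Among secreted factors, a few that the WT ventricle barely expressed were high in LCHADD, while the natriuretic peptide genes did not pass. Of 26 tested, 6 rose and 6 fell (median -0.15), and 3 fell with 12 libraries. Ostn encodes osteocrin, a peptide that occupies the natriuretic peptide clearance receptor. It had 0, 2.47 and 0.865 normalised reads in WT, 3 reads over the group, and 351, 234 and 439 in LCHADD, a ratio of 339 with a 95% counting interval of 115 to 1645. Fgf21, a hormone of the fasting response, had 0.996, 3.70 and 0 and 143, 163 and 137. Gdf15, a stress hormone that acts on appetite, had 8.96, 25.9 and 6.92 in WT and 249, 275 and 129.7 in LCHADD (log2 change 4.02, SE 0.37, adjusted p = 2.6e-07). Bmp10, a ligand made mainly in the atria of the adult heart, had 5.98, 2.47 and 4.32 and 101, 56.1 and 101. These groups did not overlap. Angptl4, an inhibitor of lipoprotein lipase, rose from 72.3 ± 49.9 to 322 ± 34.2, and Inhba, an activin subunit, from 25.8 ± 11.8 to 94.3 ± 39.8. Adm2, a relative of adrenomedullin outside the list, had 0 reads in WT and 186 over the LCHADD group. The lower end of the 95% counting interval of its ratio was 54.7. Nppa and Nppb, the atrial and B-type natriuretic peptide genes, did not pass, and Nppb had 3077, 4404 and 4039 normalised reads in WT and 4319, 4499 and 3519 in LCHADD (log2 change 0.11, adjusted p = 0.51). Of the genes that fell, Fgf2 went from 305 ± 46.9 to 164 ± 48.5, Apln, the ligand apelin, from 377 ± 9.53 to 229 ± 34.4 (12-library adjusted p = 0.12), and Vegfb from 4142 ± 126 to 3468 ± 119. Fgf1 also fell, from 3803 ± 126 to 3006 ± 235 (12-library adjusted p = 0.052).

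Genes that shape the action potential were more often lower than higher. Sodium channel genes carry the upstroke. Scn4a, the skeletal muscle form, had 1055, 1022 and 979 normalised reads in WT and 398, 603 and 448 in LCHADD (log2 change -1.10, SE 0.11, adjusted p = 1.3e-06). Scn7a, a sodium-sensing relative, fell from 279.8 ± 30.9 to 174 ± 2.80, while the beta subunit Scn4b rose from 2585 ± 209 to 3386 ± 491 (12-library adjusted p = 0.41). In all, 1 of 11 sodium channel genes rose and 5 fell, and 3 fell without WT male 3. With 12 libraries 0 rose and 2 fell.

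Potassium channel genes, which carry repolarisation and set the resting potential, gave 2 rises and 14 falls among 28 tested (median log2 change -0.39). Kcne1 stood apart. This small subunit, which joins the slow delayed rectifier, had 41.8, 41.9 and 45.8 normalised reads in WT and 251, 234 and 394 in LCHADD (log2 change 2.69, SE 0.19, adjusted p = 7.5e-09). Its partner Kcnq1 was lower (-0.29), a call lost without WT male 1 (adjusted p = 0.073), WT male 3 (0.1) or LCHADD male 1 (0.1) and with 12 libraries (0.35). Kcnh2, the rapid delayed rectifier, had 1791, 1393 and 1717 and 1057, 974 and 865 (log2 change -0.75, SE 0.09, adjusted p = 9.6e-06). Kcnv2, a silent channel subunit, fell from 279 ± 27.2 to 119 ± 37.7. Kcnd2, of the transient outward current, fell from 486 ± 16.6 to 293 ± 21.0 (12-library adjusted p = 0.12), while its subunit Kcnip2 did not pass (0.07, adjusted p = 0.57). Kcna5, of the ultrarapid current, fell from 270.0 ± 51.5 to 157 ± 22.7. Among inward rectifiers, Kcnj12 fell from 392 ± 42.6 to 255 ± 35.8, and Kcnj2 did not pass (-0.22, adjusted p = 0.11). Kcnj3, which forms the acetylcholine-gated channel with Kcnj5, had 1109, 1168 and 1067 and 506, 607 and 634, and Kcnj5 fell from 1839.6 ± 91.4 to 1512 ± 1.12. Of the ATP-sensitive channel, 1 receptor subunit, Abcc8, rose from 670.4 ± 20.7 to 881 ± 68.5. The other receptor subunit, Abcc9, had 7229 ± 277 and 6926 ± 478 and did not pass (-0.06, adjusted p = 0.52). The pore Kcnj11 (-0.16) did not pass either. The leak channel Kcnk3 fell from 5178 ± 421 to 4166 ± 352.

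**Figure D4:**
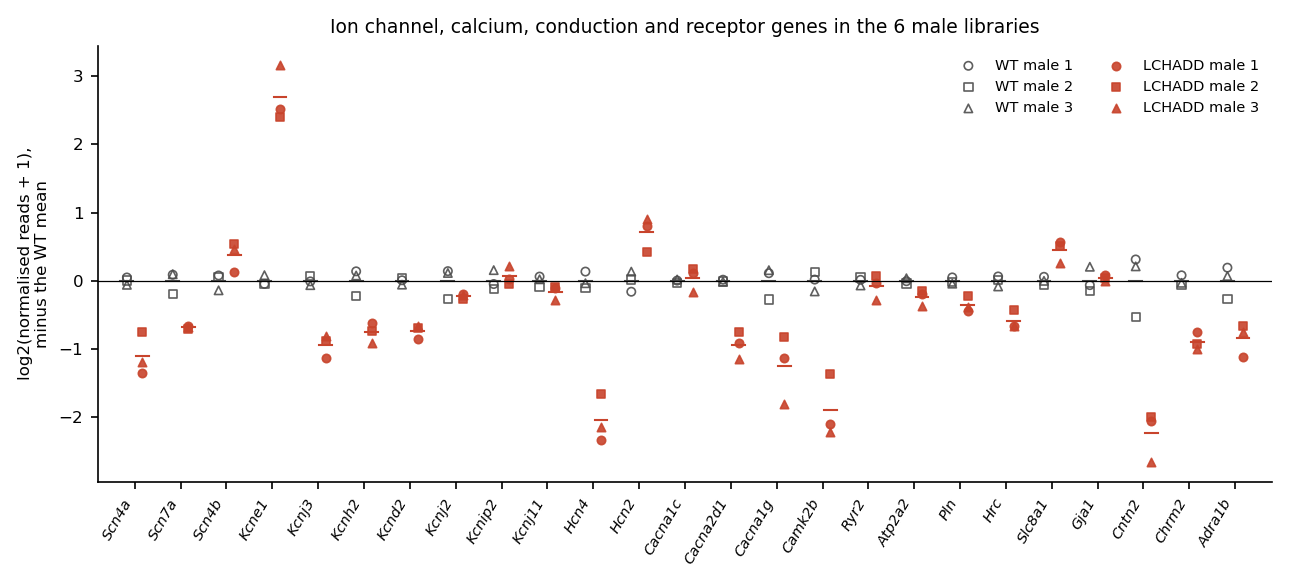
Each symbol is 1 library's log2(normalised reads + 1) minus the mean of the 3 WT males, for the gene on the x axis, with open grey symbols for WT, filled red symbols for LCHADD and a line at each group mean. Kcne1 is the highest at 2.69, Cntn2 and Hcn4 are the lowest at -2.23 and -2.04, and Cacna1c, Ryr2 and Gja1 lie near 0.

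Calcium handling genes, which link the action potential to contraction, mostly fell or did not pass. Of 33 tested genes 2 rose and 15 fell (median -0.23), the rises numbering 1 without WT male 1, WT male 3 or LCHADD male 3. The pore of the L-type channel, Cacna1c, did not pass (0.04, SE 0.08), whereas its auxiliary subunit Cacna2d1 had 3649, 3587 and 3576 normalised reads in WT and 1910.2, 2139 and 1625 in LCHADD (log2 change -0.94, SE 0.08, adjusted p = 1.1e-07). The T-type channels Cacna1g and Cacna1h fell from 272 ± 42.5 to 117 ± 38.3 and from 171 ± 14.0 to 105 ± 33.2. Camk2b, a calmodulin-dependent kinase, had 332, 359 and 294 and 76.1, 126 and 69.4, while the main cardiac form Camk2d did not pass (0.12, adjusted p = 0.17). On the sarcoplasmic reticulum, the release channel Ryr2 (-0.08, adjusted p = 0.52), the pump Atp2a2 (-0.23, adjusted p = 0.07) and the calcium buffer Casq2 (-0.09, adjusted p = 0.37) did not pass. Beside them fell Hrc, a calcium-binding protein of the reticulum, from 18844, 18183 and 17022 to 11375, 13452 and 11363, the pump inhibitor Pln, from 18928 ± 620.3 to 14919 ± 1204 (12-library adjusted p = 0.12), and Jph2, which ties the reticulum to the surface membrane, from 9687 ± 64.5 to 7966 ± 633. Casq1, the skeletal muscle calsequestrin, fell from 62.1 ± 9.46 to 15.5 ± 5.09. Slc8a1, the sodium-calcium exchanger, rose, with 3689, 3388 and 3541 in WT and 5254, 5048 and 4263 in LCHADD (log2 change 0.45, SE 0.07, adjusted p = 1.8e-04).

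Conduction system genes had the lowest median of the pathway lists, -0.48, with 2 rises and 8 falls among 20 tested. Hcn4, the main pacemaker channel, had 264, 223 and 234 normalised reads in WT and 46.9, 75.6 and 53.5 in LCHADD (log2 change -2.04, SE 0.18, adjusted p = 1.2e-07), and Hcn2, the ventricular form, had 328, 371 and 402 and 643, 492 and 685 (log2 change 0.71, SE 0.12, adjusted p = 1.8e-04). The 2 forms thus moved in opposite directions. Cntn2, an adhesion molecule of Purkinje fibres, had 123, 67.8 and 114 and 22.9, 24.0 and 14.8. The transcription factors Etv1, known for fast conduction, and Tbx5 fell from 162 ± 15.8 to 95.0 ± 19.6 and from 524 ± 31.6 to 322 ± 6.72. The gap junction gene Gjc1 fell from 247 ± 18.2 to 166 ± 14.9, whereas Gja1, the main ventricular connexin, did not pass (0.04, adjusted p = 0.74). Of 20 intercalated disc genes 0 rose and 4 fell, with 1 fall with 12 libraries and 1 rise without LCHADD male 3. Jup, which encodes plakoglobin, fell from 4285 ± 309 to 3519 ± 1.19 (12-library adjusted p = 0.055). In Hcn4, Cacna1g and Cntn2, LCHADD male 2 was the highest of its group and so nearest to WT.

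Receptors of the autonomic nerves and their messengers were also more often lower than higher, with 2 rises and 10 falls among 23 tested (median -0.32). The falls numbered 6 without WT male 3 and 4 with 12 libraries, and the rises 1 without WT male 1, WT male 2 or LCHADD male 2 and 1 with 12 libraries. Chrm2, the muscarinic receptor of the heart, had 2076, 1886 and 1923 normalised reads in WT and 1168, 1036 and 981 in LCHADD (log2 change -0.89, SE 0.08, adjusted p = 1.1e-07). Adra1b, an alpha-adrenergic receptor, had 739, 536 and 679 and 299, 409.9 and 385. Rgs2, which shortens G protein signals, fell from 381 ± 35.1 to 216 ± 22.6, and Pde2a, which degrades cyclic nucleotides, from 28.6 ± 6.68 to 2.91 ± 1.58. Grk5, a receptor kinase, rose from 529 ± 28.0 to 786 ± 54.0 (log2 change 0.57, SE 0.08, adjusted p = 6.9e-05). Dbh, the noradrenaline-making enzyme of sympathetic nerves, had 87.6, 69.0 and 56.2 in WT and 6.25, 2.29 and 4.55 in LCHADD (log2 change -3.80, SE 0.37, adjusted p = 6.6e-07). Th, the enzyme that opens this route, was at 0 in all 6 libraries, and of the other markers of nerve and Schwann cells tested Uchl1 rose (0.72) and the rest did not pass, with 2 of the list lower without WT male 3.

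The contractile apparatus showed small falls in abundant genes. Of 26 sarcomere genes 2 rose and 13 fell (median -0.18), and 8 fell without WT male 1. The rises numbered 0 without WT male 3 or LCHADD male 2 and 1 without WT male 1, WT male 2 or LCHADD male 1. With 12 libraries 0 rose and 8 fell. Tcap, which caps titin at the Z-disc, had 20905, 18850.2 and 16517 normalised reads in WT and 11027, 10798 and 9124 in LCHADD (log2 change -0.86, SE 0.08, adjusted p = 6.0e-07). Cmya5, another Z-disc protein, had 19408, 20444 and 18376 and 10688, 13724 and 10061. The thin filament genes Tpm1 and Tnni3 fell from 142257 ± 6424 to 104271 ± 3948 and from 66934 ± 2820.4 to 52812 ± 2455. Ttn (0.05, adjusted p = 0.79) and Myh6 (-0.15, adjusted p = 0.32), the giant spring and the main myosin of the adult mouse ventricle, did not pass. Of the 15 ventricular muscle markers 0 rose and 7 fell (4 with 12 libraries, and 1 rose without LCHADD male 3), and their summed level was 1473104 to 1565143 normalised reads in WT and 1233292 to 1402193 in LCHADD. Some of these markers, such as Myh6, Tnni3, Ryr2 and Pln, are sarcomere or calcium genes themselves. They are therefore not a separate reading of the muscle cells. The part of this summed level in the falls of channel, calcium and sarcomere genes was not tested.

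Genes that mark stress and a fetal state in heart muscle did not move as a set, with 7 rises and 2 falls among 18 tested (median 0.06). The falls numbered 1 without WT male 3, LCHADD male 1 or LCHADD male 2 and 1 with 12 libraries. Ankrd1, a stretch-responsive protein of the titin spring, had 14339.7, 14848 and 10965 normalised reads in WT and 36266, 29499.9 and 29611 in LCHADD (log2 change 1.25, SE 0.10, adjusted p = 4.7e-08). Cdkn1a, the cell cycle inhibitor p21, rose from 183 ± 60.3 to 675 ± 129. Myh7, the slow myosin of the fetal mouse ventricle, had 2417, 2455 and 1985 and 3156, 3851 and 2232 with overlapping groups (log2 change 0.40, SE 0.13, adjusted p = 0.034, 12-library adjusted p = 0.23), and that call was lost without WT male 1 (adjusted p = 0.058), WT male 3 (0.17), LCHADD male 1 (0.14) or LCHADD male 2 (0.17). Acta1, skeletal actin, also overlapped and is taken up with the female libraries.

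Respiratory chain genes of the nucleus fell or did not pass, and those of the mitochondrial genome rose or did not pass. Complex I, which takes electrons from NADH, had 37 nuclear subunits tested, of which 0 rose and 12 fell (median -0.14). Complexes II to V had 36, of which 0 rose and 14 fell (median -0.14). Ndufs7, of the electron path of complex I, had 5742, 5049 and 5666 normalised reads in WT and 4146, 4694 and 4065 in LCHADD (log2 change -0.35, SE 0.07, adjusted p = 0.0011). Ndufa13 and Ndufv3 fell from 6859 ± 396 to 5388 ± 323 and from 3912 ± 222 to 3097 ± 188. Cox7a1, the muscle form of a cytochrome oxidase subunit, had 8895, 8908 and 7308 and 5293, 5941 and 6249 (log2 change -0.52, SE 0.08, adjusted p = 9.2e-05). These falls were shallow, and the counts rested on single libraries: complex I had 6 falls without WT male 1 and 6 without LCHADD male 1. Complexes II to V had 5 without WT male 1, 6 when WT male 2 was left out, 6 when LCHADD male 1 was, and 5 with 12 libraries, and 1 rise without LCHADD male 2. Of the 13 mitochondrially encoded messengers 8 rose and 0 fell (median 0.38), and 5 rose without WT male 3 and 4 with 12 libraries. By edgeR, by DESeq2 and with the robust eBayes setting of limma 12 rose. The complex I genes mt-Nd2 and mt-Nd1 had the largest differences among the abundant ones, with 465982, 505785 and 415462 and 727136, 797185 and 728134 for mt-Nd2 (log2 change 0.70, SE 0.12, adjusted p = 1.9e-04) and 608826, 651566 and 555115 and 805239, 899182 and 860827 for mt-Nd1. The most abundant, mt-Co1, did not pass (0.19, adjusted p = 0.45). LCHADD male 2, which had the largest share of mitochondrial reads, 36.1%, was the highest of its group for each of the 8 that rose. How reads shared with nuclear copies of mitochondrial genes were counted is unknown. Scaled by reads of nuclear genes alone, a choice made after seeing the data, 9 rose, and 11 complex I genes and 13 of complexes II to V fell.

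In the citrate cycle and at pyruvate dehydrogenase 4 genes rose and 9 fell of 30 tested (median -0.06), with 5 falls without WT male 1. With 12 libraries 2 rose and 5 fell. Pdk4, the kinase that shuts pyruvate dehydrogenase, had 4250.0, 2956 and 4331 normalised reads in WT and 19053, 19599 and 16679.6 in LCHADD (log2 change 2.28, SE 0.11, adjusted p = 5.9e-11), while Pdk2, the constitutive form, fell from 8464 ± 525 to 6876 ± 274. Got1, the cytosolic aspartate transaminase, rose from 14907 ± 89.5 to 19692 ± 1107, and its mitochondrial partner Got2 fell from 11638 ± 418 to 9723 ± 213. Cs, citrate synthase, did not pass (0.08, adjusted p = 0.41). Fatty acid oxidation itself had no common direction, with 7 rises and 4 falls among 28 tested and a median of 0.00. Acot2, a mitochondrial acyl-CoA thioesterase with the near copy Acot1, had 1033, 836 and 961 and 3482, 2626 and 2593 (log2 change 1.61, SE 0.10, adjusted p = 2.6e-09). Ucp3, an uncoupling protein that follows fatty acid load, rose from 821 ± 168 to 1654 ± 121 (12-library adjusted p = 0.076). Acads, the short-chain dehydrogenase, fell from 5465 ± 283 to 4434 ± 219.9, and the falls numbered 1 without WT male 1, 2 without WT male 2 and 1 without LCHADD male 1. With 12 libraries 3 oxidation genes rose and 1 fell. Of 33 genes of fatty acid uptake, droplets and glycerolipids, 7 rose and 6 fell. Gpat3 and Agpat2, early steps of triglyceride synthesis, rose from 191 ± 19.7 to 347 ± 50.9 and from 886 ± 68.9 to 1318 ± 43.4. Fitm1, which buds lipid droplets, and G0s2, an inhibitor of triglyceride lipase, fell from 1278 ± 101 to 695 ± 95.0 and from 789.9 ± 47.0 to 501 ± 72.5.

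Genes of glucose use moved in either direction. Of 25 genes of glucose uptake and glycolysis 7 rose and 6 fell (median 0.06), and 2 fell with 12 libraries. Hk1, a hexokinase, had 2942, 2676 and 3350.3 normalised reads in WT and 5072, 4279.5 and 4676 in LCHADD (log2 change 0.65, SE 0.08, adjusted p = 9.1e-06). Eno3, the muscle enolase, had 23988, 21966 and 23416 and 15868, 17328 and 15468 (12-library adjusted p = 0.059), and Eno1, the general form, rose from 1988 ± 81.0 to 2509.7 ± 44.8. The platelet-type phosphofructokinase Pfkp rose from 740.1 ± 76.8 to 1124 ± 57.1. Ldha, the lactate dehydrogenase subunit of lactate-forming tissues, had 11604, 11598 and 11625 and 7051, 8135 and 7303 (log2 change -0.63, SE 0.06, adjusted p = 7.6e-07). Glucose transporter Slc2a4 fell from 9191 ± 379 to 7576 ± 309 (12-library adjusted p = 0.086). Pfkfb1, which makes an activator of phosphofructokinase, fell from 368 ± 6.50 to 170.0 ± 34.1.

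Glycogen genes also moved both ways, with 7 rises and 6 falls among 22 tested (median 0.07). Gyg, the primer protein glycogenin, had 2738, 2936 and 2784 normalised reads in WT and 5457, 4423 and 5442 in LCHADD (log2 change 0.85, SE 0.08, adjusted p = 1.9e-07). Ugp2, which makes UDP-glucose, and Gbe1, the branching enzyme, rose from 5619.8 ± 411 to 8329.5 ± 161 and from 1053 ± 79.5 to 1527 ± 129.9. Stbd1, a glycogen-binding protein of the reticulum, rose from 125 ± 40.7 to 351 ± 110.5. Phkg1, the catalytic subunit of phosphorylase kinase, had 303, 317 and 356 and 44.8, 59.5 and 26.2, a 7.48-fold lower mean. The phosphatase targeting subunit Ppp1r3b and Epm2a, the phosphatase laforin, fell from 653 ± 103 to 438 ± 60.1 and from 765 ± 86.7 to 513 ± 37.7. The synthase Gys1 (-0.16, adjusted p = 0.088) and the phosphorylase Pygm (0.06, adjusted p = 0.56) did not pass.

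Genes for the breakdown of branched-chain amino acids mostly fell or did not pass. Counted with ketone body genes, 2 rose and 10 fell of 23 tested (median -0.17), with 1 rise with 12 libraries. Ppm1k, the phosphatase that activates the branched-chain ketoacid dehydrogenase, had 2208, 1806 and 2089 normalised reads in WT and 1153, 1309 and 1209.7 in LCHADD (log2 change -0.73, SE 0.08, adjusted p = 2.2e-06, 12-library adjusted p = 0.063). Ivd, the leucine-route dehydrogenase, had 11513, 10467 and 11015 and 6883, 7923 and 6507 (log2 change -0.63, SE 0.07, adjusted p = 3.0e-06). Acadsb, of the isoleucine route, and Aldh6a1, of the valine route, fell from 3145 ± 43.6 to 2449 ± 112 and from 4204 ± 32.4 to 3280.3 ± 162. Oxct1, which opens ketone body use, did not pass (0.04, adjusted p = 0.65).

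Antioxidant genes, many of them targets of the transcription factor NRF2, gave 23 rises and 4 falls among 37 tested (median 0.38). Catalase, Cat, had 4601, 4117 and 4296 normalised reads in WT and 7741, 6964 and 6904 in LCHADD (log2 change 0.73, SE 0.07, adjusted p = 1.9e-07). Srxn1, which repairs peroxiredoxins, had 432, 409 and 459 and 1014, 831 and 859. Of glutathione synthesis rose Gclm, the modifier of its limiting step, from 407 ± 50.4 to 621 ± 93.6 and Gss, the last step, from 202 ± 10.5 to 327 ± 48.5. Ferritin light chain, Ftl1, rose from 456 ± 33.2 to 702 ± 38.5. The transferases Gsta2 and Gsta1, near copies whose reads may be shared, rose from 19.0 ± 9.82 to 339 ± 24.2 and from 39.1 ± 12.5 to 277 ± 88.3. Mgst3, a microsomal transferase, fell from 4854 ± 186 to 3132 ± 142, and the list's falls numbered 2 without WT male 1. The core of the antioxidant response element, TGACNNNGC on either strand, stood in 10.2% of all promoters in the table and in 8 of the 32 antioxidant genes with a promoter there, 25%. Among the 10127 tested genes with a promoter in the table, of 13336, the share was 14.0%. This list holds many NRF2 targets, so its share is no measure of the change in LCHADD either. It was present in genes of either direction, shown for 2 that rose and 1 that fell.
Gclm: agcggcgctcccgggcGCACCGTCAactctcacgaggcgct
Prdx1: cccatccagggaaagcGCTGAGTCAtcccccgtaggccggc
Mgst1: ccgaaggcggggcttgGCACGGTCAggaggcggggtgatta
The windows lie on the plus strand at chr3:122245407-122245447, chr4:116685450-116685490 and chr6:138140455-138140495 of GRCm38.p6. Prdx1, a peroxiredoxin, rose from 4921 ± 48.0 to 6328 ± 473, and Mgst1 fell from 778 ± 48.0 to 619 ± 27.4.

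Mitochondrial chaperones, proteases and import genes rose in 11 of 28 cases and fell in 1 (median 0.15). Lonp1, the matrix protease, had 3283, 2932 and 3250.0 normalised reads in WT and 8111, 5974 and 7999 in LCHADD (log2 change 1.21, SE 0.09, adjusted p = 2.8e-08). Hspa9, the motor of import, had 14829, 15459 and 14692 and 29126, 24633 and 26907. Clpb, a disaggregase, rose from 1685 ± 50.2 to 2259.9 ± 109. Lysosome and autophagy genes divided, with 5 rises and 6 falls among 24 tested. The cathepsin Ctsl had 2304, 2536 and 2559.9 and 6722, 4549 and 5448 (log2 change 1.16, SE 0.10, adjusted p = 1.1e-07). The cargo receptor Sqstm1 rose from 5746 ± 174 to 9183 ± 1315. Pink1, the kinase that flags damaged mitochondria, fell from 13122, 11991 and 13079.5 to 8240.1, 9206 and 8710.2 (log2 change -0.55, SE 0.06, adjusted p = 4.5e-06). The falls numbered 3 without WT male 1, 3 without LCHADD male 1 and 3 with 12 libraries.

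Regulators of growth and metabolism were split as well, with 6 rises and 8 falls among 30 tested (median -0.02), and 3 rises without WT male 1. With 12 libraries 3 rose and 5 fell. The histone deacetylases Hdac4 and Hdac5, which hold back hypertrophic transcription, fell from 569.5 ± 17.0 to 361 ± 58.9 and from 1706 ± 87.0 to 1290.0 ± 15.4. Esrrg, a nuclear receptor of mitochondrial genes, rose from 1080.0 ± 85.6 to 1516 ± 186, and Tbx20, a cardiac transcription factor, from 1661 ± 59.8 to 2057 ± 121. Ppara, a nuclear receptor of fatty acid oxidation, did not pass (0.11). Of 23 hypoxia and p53 targets 7 rose and 4 fell, with 4 rises with 12 libraries. Hif1a, the hypoxia factor, rose from 985 ± 66.2 to 1522 ± 44.7, and Egln3, a prolyl hydroxylase induced by it, fell from 1674, 1703 and 1650.1 to 742, 870.1 and 817 (log2 change -1.05, SE 0.07, adjusted p = 1.0e-08).

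Most connective tissue genes fell or did not pass. Of 33 collagen and fibrosis genes 3 rose and 11 fell (median -0.20). Timp2, an inhibitor of matrix proteases, had 1397, 1459 and 1450.3 normalised reads in WT and 869, 815 and 875 in LCHADD (log2 change -0.75, SE 0.07, adjusted p = 3.1e-07). The collagens Col5a1 and Col6a1 fell from 444 ± 45.1 to 288 ± 9.19 and from 836 ± 88.6 to 595 ± 3.14. Col1a1 (-0.17, adjusted p = 0.34) and Postn (0.17, adjusted p = 0.26), markers of active scarring, did not pass. The rises were Ltbp2, Thbs4 and Cilp, which went from 24.3 ± 2.86 to 65.5 ± 32.0, from 76.0 ± 2.72 to 119 ± 18.8 (12-library adjusted p = 0.091) and from 81.6 ± 29.2 to 124 ± 10.8 (12-library adjusted p = 0.089). The rises numbered 1 without LCHADD male 1, 1 without LCHADD male 3 and 1 with 12 libraries. Markers of the cells that make matrix also fell or did not pass, but some of them, such as Col1a1, Postn and Dcn, are matrix genes themselves. They are therefore not a separate reading of the cells. Of 15 fibroblast markers 8 fell and 0 rose, their summed level being 28214 to 30979 normalised reads in WT and 21219 to 22431 in LCHADD. Dcn, decorin, fell from 6148, 6137 and 6180.0 to 4340.5, 4372 and 3999. The part of fibroblast number in the matrix result was not tested.

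Other cell types were read from their markers. Of 15 endothelial markers 6 fell and 0 rose (summed level 28145 to 29408 in WT and 22629.5 to 25801 in LCHADD), with 11 falls without LCHADD male 3. Tek, the receptor of angiopoietin, went from 848 ± 39.1 to 573 ± 29.7. Of 13 markers of pericytes and smooth muscle 7 fell and 0 rose (summed level 42636 to 42897 and 38914 to 40245). Myh11, the smooth muscle myosin, fell from 387 ± 43.5 to 193 ± 68.0. Des and Abcc9, counted in that sum, are also in the heart muscle and potassium channel lists, and neither passed. Des alone had 22885 ± 493 in WT and 23032 ± 811 in LCHADD, so the sum is not a reading of mural cells alone. None of 15 macrophage markers passed by limma, with a summed level of 4198 to 5430.2 in WT and 3713 to 5363 in LCHADD, and 3 fell without LCHADD male 3. Erythroid markers were the lowest group, with 5 falls among 8 tested, a median of -1.09 and a summed level of 12591 to 14633 against 7521 to 8052. The beta globin gene Hbb-bs had 5383, 6864 and 5624 normalised reads in WT and 2532, 2548 and 2732 in LCHADD (log2 change -1.19, SE 0.08, adjusted p = 5.0e-09), and globin genes are near copies of one another. Of 16 interferon-responsive genes 1 rose and 1 fell, Irf7 from 197 ± 3.71 to 102 ± 24.1. None rose without WT male 1, and 2 fell without LCHADD male 3.

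Genes that follow time of day or recent stimulation were lower in part. Of 19 circadian clock genes 1 rose and 10 fell (median -0.31). With 12 libraries 0 rose and 3 fell, and the rise was lost without any 1 of 5 libraries, the exception being LCHADD male 3. Hlf, an output factor of the clock, had 474, 546 and 431 normalised reads in WT and 197, 221 and 190.0 in LCHADD (log2 change -1.25, SE 0.11, adjusted p = 2.0e-07). Per1, a core repressor, had 425, 988 and 800.0 and 361, 438 and 261, with groups that overlapped (12-library adjusted p = 0.075), and Nr1d1, another repressor, fell from 1643 ± 54.2 to 1303 ± 189. Of 24 immediate early genes, which respond within minutes to a stimulus, 2 rose and 9 fell (median -0.39), with 1 rise without WT male 3 or LCHADD male 1. Nr4a1, an orphan nuclear receptor, had 1123, 523 and 598 and 294, 193 and 254 (log2 change -1.53, SE 0.20, adjusted p = 2.1e-05), and Fosl2 fell from 538 ± 101 to 307 ± 41.9. Egr1 did not pass (-0.16, adjusted p = 0.82).

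Several of the largest changes lay outside these pathways. Vmn2r3, a member of the vomeronasal receptor family, had 0, 1.23 and 0 normalised reads in WT, 1 read over the group, and 618, 305 and 467 in LCHADD, 1269 reads. Soat2, which makes cholesterol esters, had 0, 2.47 and 2.59 and 195, 87.0 and 140.0, and Tfcp2l1, a transcription factor, rose from 18.8 ± 5.33 to 382 ± 42.3 (log2 change 4.31, SE 0.21, adjusted p = 6.3e-11). Tenm4, a teneurin adhesion protein, had 25.9, 21.0 and 17.3 and 775, 264 and 353. Slc24a2, a potassium-dependent sodium-calcium exchanger, rose from 22.5 ± 2.91 to 389 ± 84.2, and Steap2, a metalloreductase, from 9.32 ± 3.10 to 139 ± 43.5. These groups did not overlap. On the falling side, Pla2g5, a secreted phospholipase, had 822, 862 and 819 in WT and 90.7, 96.2 and 85.3 in LCHADD (log2 change -3.19, SE 0.10, adjusted p = 1.3e-12). Cenpf, a kinetochore protein, had 430.3, 337 and 582 and 79.2, 73.3 and 58.0, and of the other 6 tested proliferation markers none passed. Cyp26b1, which clears retinoic acid, fell from 217 ± 49.8 to 42.8 ± 4.54, as did Ramp1, which shapes peptide receptors of blood vessels, from 106 ± 23.8 to 21.7 ± 3.35. The chloride channel Clcn1 fell from 135 ± 9.17 to 30.2 ± 3.63.

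The female libraries show how far the male changes recurred in the other sex. In the fit over all 12 libraries and 13865 genes, 4692 genes passed in females, 33.8%. The male calls are those of the fit of 6 libraries, so the 2 sets rest on unlike estimates of the spread. With 12 libraries 2139 genes passed in males. Of the 3333 genes that passed in males, 2610 also passed in females with the same sign, and 4 passed with the opposite sign. The 2610 are 78.3% of the male and 55.6% of the female set. Of the 15 largest male rises all 15 had a larger log2 change in females, as did 14 of the 15 largest falls. For none of these 30 did the difference between the sexes pass, the lowest adjusted p being 0.20. The difference passed for 1 gene, 0.00721% of those tested, with 1363 at an unadjusted p under 0.05, and by edgeR for 2.

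That gene was Acta1, which encodes skeletal actin and is known to be re-expressed in stressed heart muscle. It had 5755, 5172 and 3730.0 normalised reads in WT and 9410.5, 8711 and 5000.3 in LCHADD among males, where LCHADD male 3 lay inside the WT range. In females it had 2005, 1796 and 1408 in WT and 13089, 13558 and 12646 in LCHADD, with no overlap. The log2 change was 0.63 in males (fit of 6 libraries, SE 0.17, adjusted p = 0.012). In the fit of 12 libraries it was 2.93 in females (SE 0.20, adjusted p = 1.6e-07). The difference, male minus female, was -2.30 (12 libraries, SE 0.29, adjusted p = 0.011). The WT groups lay apart too, at 4886 ± 1043 in males and 1736 ± 303 in females. The male rise was lost without WT male 3 (adjusted p = 0.088) and without LCHADD male 1 (0.11). It was also lost by DESeq2 and with the robust eBayes setting of limma. The difference between the sexes was lost without WT male 2 (adjusted p = 0.090), WT female 2 (0.050), WT female 3 (0.065) or LCHADD female 1 (0.061), with values between -2.33 and -2.16.

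**Figure D5:**
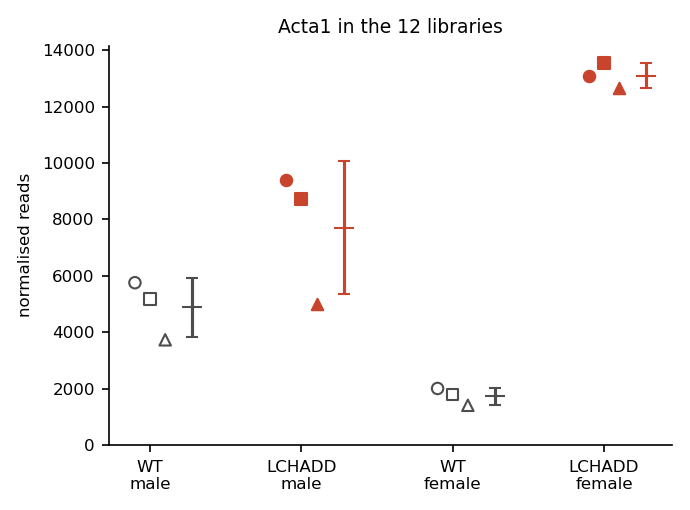
Normalised reads of Acta1 in each of the 12 libraries (symbols), with the mean and SD of n = 3 beside each group. The female LCHADD libraries lie at 12646 to 13558 against 1408 to 2005 in WT females, while the male groups overlap.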

How the data were processed

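Total RNA was measured in 12 ventricle libraries, and the 6 male ones were analysed. The authors deposited 1 table of normalised values, used here as a signal: gene read counts divided by 1 scaling factor per library. Reads were processed on build GRCm39 with bcl2fastq and DESeq2, per the submitters' processing notes; for the aligner, annotation, strand setting and versions, the sources used here give nothing. In every library 100% of values were whole multiples of 1 step (tolerance 0.01), which gave back whole reads and the depths stated. Groups came from the labels. Genotypes were compared with limma 3.58.1 (lmFit, eBayes with trend) on log2(value + 1), which understates changes of low genes, with Benjamini-Hochberg adjustment over 13336 genes. An exact permutation test of 3 against 3 cannot go below p = 0.1. The difference between the sexes used all 12 libraries, 4 group means and 13865 genes. edgeR 4.0.16 and DESeq2 1.42.0 were run on the recovered reads as alternatives, calling 3406 and 2921 genes. Data simulated from the 6 male libraries (13336 genes) held known changes in 67 genes at 1.5-fold, 67 at 2-fold and 66 at 4-fold. Of these 58.2%, 85.1% and 95.5% were recovered, and 5.92% of calls were unchanged genes. In the real data 25% of genes passed, a far larger share, so these rates need not hold there. Counting intervals cover counting error only.

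Members and lists were chosen with earlier results of these data known. Genes were named by rule: Hadha and Hadhb, the 15 largest rises and falls with a mean of at least 50 and no overlap, per list up to 4 passing members with the smallest adjusted p and 2 abundant members that did not pass, genes passing the sex difference, and list members whose role the account needed. Some genes the rule takes are not reported here. Other settings tried were the added value, the filter, scaling, spread estimate, tool, replicate block and leaving out each library.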

Additional observations from a re-analysis of the deposited data

Results flagged for a closer look

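The change of Acta1 between genotypes differed between the sexes by -2.301 on the log2 scale (male minus female, interaction term of limma over 12 libraries, adjusted p = 0.011), and LCHADD libraries were higher than every WT library of their sex in 2 of 3 males and 3 of 3 females.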

How the results depend on the processing

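The number of genes passing in males, 3333, lay between 2921 and 3602 under other added values, filters, scalings, spread estimates and tools. With all 12 libraries in the fit it was 2139 (1060 higher and 1079 lower), and with a 1.5-fold threshold 1269 (609 and 660). Leaving out 1 library gave 2409 to 3249 genes, 1147 to 1553 higher and 1227 to 1696 lower; the cause was not tested beyond the smaller number of samples. Upper-quartile scaling gave 1515 higher and 1815 lower, and scaling by nuclear reads, chosen after seeing the data, 1737 and 1600. Same-numbered libraries did not deviate together (correlations -0.0174, -0.04502 and -0.0009694), and differently numbered ones gave -0.05304 to 0.06971. With 3 libraries per group such values cannot tell whether the samples were paired. With the replicate block 3243 genes passed (1584 higher and 1659 lower) and the sex difference passed for 1. The sex difference passed for 2 genes with TMM scaling and 2 by edgeR, and for 0 to 186 when 1 library was left out. It was 0 without WT male 2, WT female 2, WT female 3 or LCHADD female 1, 2 without WT male 1, 69 without LCHADD male 3, 8 without LCHADD female 2 and 186 without LCHADD female 3. Of 206 named genes, 177 passed, and 22 lost the call with all 12 libraries, 6 with DESeq2, 4 with robust eBayes, 2 with no filter, upper-quartile scaling or the block, and 4 to 9 when 1 library was left out. None that passed changed sign. Genes that did not pass changed sign when 1 library was left out, with ranges of -0.024 to 0.1445 for Cacna1c, -0.5459 to 0.5527 for Egr1, -0.0316 to 0.1459 for Gja1, -0.0041 to 0.1488 for Kcnip2, -0.0394 to 0.3007 for Lars2, -0.3599 to 0.2801 for Nppa, -0.0446 to 0.2154 for Nppb, -0.1552 to 0.0198 for Ryr2 and -0.0664 to 0.2047 for Ttn. Of 90 list counts, 28 moved by over 1.5 times with all 12 libraries, 7 to 15 when 1 library was left out, and at most 7 under the other settings. Depth limits the genes with few reads in WT, whose ratios carry wide counting intervals.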
